A study of Danio rerio with 8 samples.

Results

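Mostly included frame-preserving exons are cassette exons that nearly all transcripts of 1 set of zebrafish libraries kept, and whose length is a multiple of 3 bases. Leaving such exons out does not shift the reading frame of a coding stretch. They were taken from the authors' deposited table of skipped-exon events, in which each event pairs reads over the 2 junctions that include an exon with reads over the junction that skips it. An event was kept when its exon was longer than 30 bases and a multiple of 3, its inclusion and skipping reads averaged at least 10 per library over 8 libraries, and its mean inclusion level over the 4 libraries of the table's set 2 was at least 0.8. The inclusion level is the share of length-corrected junction reads that support the exon, from 0 to 1. This gave 9274 events, 8545 exons and 5792 genes out of 30752 skipped-exon events (30.2%). The table names its libraries only as set 1 and set 2, and no genotype is assigned to either set here, so inclusion is compared between sets and gene level between genotypes. The rule used inclusion in set 2, so every difference between the sets is a description. Frame preservation was judged from length alone, since no annotation of the build was used to tell coding exons from untranslated ones. Whether an exon begins at a codon boundary was not determined either. A skipping junction can also span further exons, whose lengths the rule did not count.

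The libraries were made from polyA RNA of whole larvae of the TLEK strain at 5 days of age. Wild types gave 4 libraries, and upf1 mutants, homozygous for the nonsense allele, gave the other 4, with no further treatment named in the labels. Per the labels, the study asked what upf1 does in lymphocyte development. The labels do not say how many larvae made up a library or whether replicates came from separate clutches, so p-values measure only the spread between these libraries, which may be technical.

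The upf1 protein is the RNA helicase at the centre of nonsense-mediated decay (NMD), which degrades transcripts with a premature stop codon. Skipping an exon whose length is not a multiple of 3 shifts the frame downstream and often creates such a stop. Skipping a coding frame-preserving exon usually shortens the protein by an internal segment instead. Exons whose length is not a multiple of 3, chosen by the same read and inclusion limits, therefore serve as the comparison and are called frame-breaking here.

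Gene counts summed to between 75335048 and 96104507 per library. The upf1 mRNA was higher in mutants, at 285 ± 7.51 against 129 ± 4.35 CPM (reads for the gene relative to the scaled library total, given as mean ± SD with n = 4). Such an allele can leave the mRNA level unaffected, so the value is no check of the labels. Of 14 marker genes of muscle, neurons, skin, lens, liver, blood and gut, 13 were measured, with median levels between 11.4 and 17158 CPM. Because whole larvae were used, less RNA per cell and fewer cells of a type cannot be told apart at gene level.

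The exons were short and embedded in introns of ordinary size. Their median length was 111 bases, with quartiles of 78 and 150 and a range from 33 to 4896. The median upstream intron was 1514 bases and the median downstream intron 1550. Frame-breaking exons were alike, with a median length of 115 bases and introns of 1488.5 and 1481. Frame-preserving exons below the inclusion limit were shorter, with a median of 78 bases, and had longer introns, with medians of 2073 and 2232 bases. Most genes contributed 1 exon (4036 genes), 1667 contributed 2 to 4, 83 contributed 5 to 9 and 6 contributed 10 or more. The gene si:ch211-266g18.10 held 30 of the exons, and ank2b and ehbp1l1b held 11 each. Events are not independent of each other, since 623 shared their skipping junction with another member event and 617 exons stood in more than 1 event.

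Inclusion was close to complete in both sets. Of the 9274 events, 7124 had a mean inclusion of at least 0.99 in set 2, and 4279 had no skipping read in any set 2 library. The mean inclusion level over the events lay at 0.978 in each of the 4 libraries of set 1, and at 0.986, 0.987, 0.987 and 0.987 in those of set 2. Frame-breaking exons averaged 0.974 to 0.976 in set 1 and 0.993 to 0.994 in set 2.

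Skipping reads over the frame-preserving exons came to 2.98, 3.05, 2.99 and 2.63 per 1000 junction reads in libraries 1 to 4 of set 1. In set 2 they came to 1.72, 1.44, 1.83 and 1.85 per 1000. The sets did not overlap, and the selection on set 2 favours this order. Over frame-breaking exons the rates were 4.98, 4.98, 4.77 and 4.58 in set 1 and 1.25, 1.095, 1.29 and 1.26 in set 2, so that frame-breaking exons had more skipping reads than frame-preserving ones in set 1 and fewer in set 2. All 8 libraries followed that order. Both classes were chosen by the same limit on inclusion in set 2, so the order in set 2 comes from values the rule used. It is a description only.

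**Figure D1:**
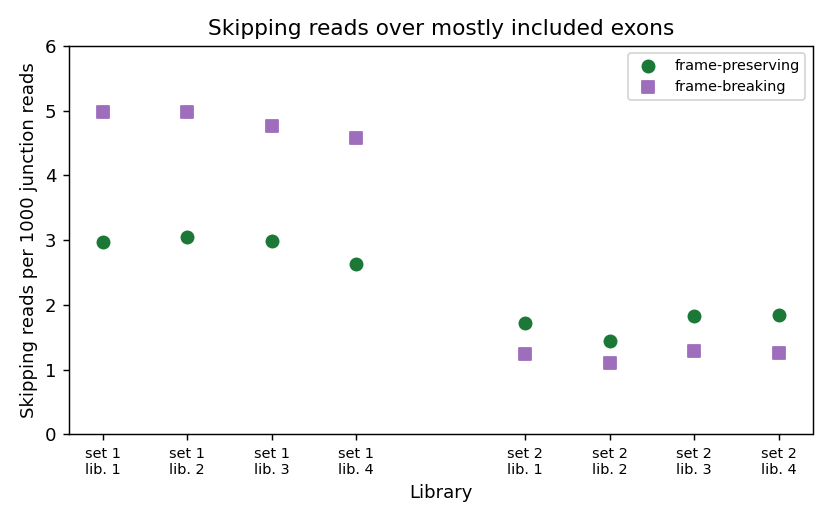
Skipping reads per 1000 junction reads (vertical axis) in each of the 8 libraries of the splicing table (horizontal axis), for mostly included frame-preserving exons (circles) and frame-breaking exons (squares). Circles lie below squares in set 1 and above them in set 2.

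In the authors' deposited table, 437 of the 9274 events (4.71%) passed a false discovery rate (FDR) of 0.05, against 9.01% of all 29523 skipped-exon events with the read minimum. Inclusion was lower in set 1 for 395 member events (4.26%) and higher for 42 (0.453%). Over all 29523 events, 7.74% were called lower and 1.27% higher. The rule favours this direction, because an exon near full inclusion in set 2 has little room to be higher in set 1. The part of the rule in the direction was not tested, and no count is read against that background. When members were chosen by their inclusion in set 1, 315 were lower and 68 higher, and when chosen by the mean of both sets, 362 were lower and 55 higher. With a difference of at least 0.1 required as well, 161 member events were lower and 7 higher. Over all events, 3.29% were lower and 0.644% higher by this limit. The levels of the sets did not overlap in 340 member events (3.67%, against 7.97% of all events). The median difference of the 395 was -0.077, and that of all members -0.002. The events that passed lay in 425 exons of 388 genes, of which 357 had 1 such exon, 27 had 2 and 4 had 3 or more.

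**Figure D2:**
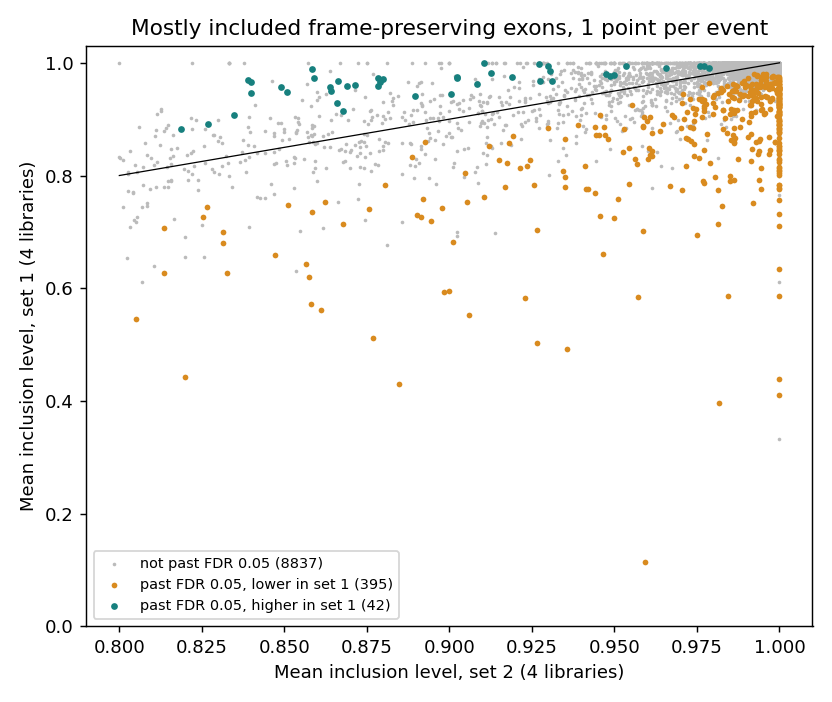
Mean inclusion level in set 1 (vertical axis) against set 2 (horizontal axis) for the 9274 events, 1 point per event, with the diagonal marking equal inclusion. The 395 events lower in set 1 past the FDR of 0.05 lie below the line, the 42 higher ones above it, and the horizontal axis starts at the limit of 0.8.

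Among frame-breaking exons, 1597 of 16859 events (9.47%) passed, 1561 lower and 36 higher in set 1. Chosen by set 1 instead, 1278 frame-breaking events were lower and 49 higher. The share of frame-preserving events that passed was 14.5% (52 of 359) at a set 2 inclusion of 0.8 to 0.9, 15.6% (54 of 346) at 0.9 to 0.95 and 8.79% (127 of 1445) at 0.95 to 0.99. It was 3.32% (92 of 2774) from 0.99 to below 1 and 2.57% (112 of 4350) at full inclusion. For frame-breaking exons these shares were 28.3%, 32.1%, 18.7%, 11.4% and 6.08%, larger in every bin. The events higher in set 1 lay at the less included end, with 22 of the 42 between 0.8 and 0.9, 15 between 0.9 and 0.95 and 5 between 0.95 and 0.99. By length, 7.01% of frame-preserving events passed at 33 to 60 bases, 4.56% at 61 to 120, 4.00% above 120 and up to 240 and 4.55% above 240. Frame-breaking events had shares of 11.9%, 10.5%, 8.30% and 5.27% in the same length bins, so the larger share at 33 to 60 bases was seen in both classes.

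**Figure D3:**
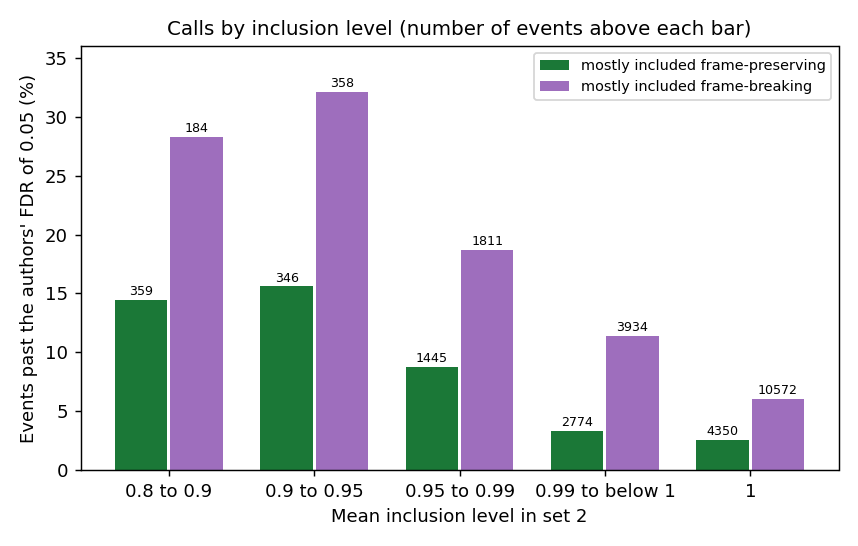
Percent of events past the authors' FDR of 0.05 (vertical axis) in bins of mean inclusion in set 2 (horizontal axis), with the number of events above each bar. Frame-preserving bars (green) reach 15.6% at most and are lower than the frame-breaking bars (purple) in each bin.

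Skipping reads were often seen in 1 set only, but rarely in all 4 libraries of that set. In 4279 frame-preserving events (46.1%) no set 2 library had a skipping read, and in 1790 (19.3%) no set 1 library had one. Over all 29523 events these shares were 50.8% and 12.4%. Skipping reads were present in all 4 libraries of set 1 and absent from all 4 of set 2 in 146 frame-preserving events (1.57%), and the reverse held in 4. Over all 29523 events the numbers were 1048 (3.55%) and 12, and among frame-breaking events 863 (5.12%) and 6. The table holds no event without a skipping read in at least 1 library, so exons that are always included are not among those counted.

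A quasi-likelihood fit of the junction reads in edgeR, adjusted by the Benjamini-Hochberg method over all 29523 events, placed 267 member events lower and 24 higher in set 1 at 0.05. Over all 29523 events, 7.51% passed this fit, 6.58% as lower and 0.931% as higher. Of the events called by the authors' FDR 49.2% were also called by this fit, and 73.9% of the fit's calls were among the authors'. Without library 1 of set 2 the fit called 169 lower. It called between 13 and 15 higher without libraries 1, 2 or 3 of set 1 or library 2 of set 2.

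The largest shift was in ITIH4 (ENSDARG00000100406), an inter-alpha-trypsin inhibitor heavy chain, a family of secreted plasma proteins made in the liver. Its exon of 39 bases, the length of 13 codons, lies on the plus strand at chr11:36949572-36949610 of GRCz10. Inclusion was 0.063, 0.106, 0.046 and 0.241 in set 1 and 0.955, 0.947, 0.969 and 0.966 in set 2, so the exon was mostly skipped in every library of set 1. The reads behind these levels were 70, 102, 36 and 285 inclusion reads with 690, 570, 495 and 592 skipping reads in set 1. Set 2 had 1410, 2064, 1744 and 1747 inclusion reads with 44, 77, 37 and 41 skipping reads. The difference in the authors' deposited table was -0.845, the largest fall among 151 exons whose sets did not overlap, with the FDR of 0.05 and a mean of at least 30 reads.

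Related plasma protein genes, chosen after their values were seen, held several such exons. In itih3b, 3 exons of 54, 54 and 63 bases were lower in set 1. The first (chr11:36921792-36921845) had inclusion levels of 0.876, 0.774, 0.878 and 0.907 in set 1 and 1, 1, 0.994 and 1 in set 2. In itih3a, an exon of 33 bases (chr11:3609499-3609531) had levels of 0.84, 0.763, 0.715 and 0.847 against 1, 1, 0.975 and 1. In both of these exons no set 1 library reached the lowest set 2 library. In the itih3b exon of 63 bases the sets overlapped, as library 3 of set 1 stood at 1. The skipping junctions of all 3 itih3b events start at the same splice site. That of the other exon of 54 bases (chr11:36925171-36925224) also spans the exon at chr11:36921792-36921845. That of the exon of 63 bases spans both. These events are not independent, and reads over the longer junctions do not show a loss of 1 exon alone. Whether those reads keep the frame is not known.

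Genes of metabolic and repair enzymes were among the 12 largest falls. The gene hal encodes histidine ammonia-lyase, which starts histidine breakdown, and its exon of 81 bases (chr25:7833519-7833599) had the best coverage of the larger falls after ITIH4, with a mean of 487 reads. Its inclusion was 0.564, 0.589, 0.532 and 0.661 in set 1 and 0.996, 0.984, 0.982 and 0.976 in set 2, a difference of -0.398 in the authors' deposited table. The exon of 102 bases in lypla1, a thioesterase that removes palmitate from proteins (chr7:58545624-58545725), stood at 0.548, 0.573, 0.472 and 0.452 in set 1 and at 0.8, 0.846, 0.862 and 1 in set 2. The DNA glycosylase gene neil1, which acts in base excision repair, had an exon of 477 bases (chr25:26388496-26388972) at 0.705, 0.627, 0.31 and 0.605 against 0.862, 0.857, 0.814 and 0.911. The sets were separate for all 3 exons.

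Regulators of splicing and chromatin were also among the 12 largest falls. The gene esrp2 encodes an epithelial splicing regulator, and its exon of 153 bases (chr7:34523628-34523780) had inclusion levels of 0.511, 0.528, 0.565 and 0.606 in set 1. In set 2 they were 0.826, 0.943, 0.978 and 0.877, a difference of -0.353 in the authors' deposited table. The exon of 93 bases in srpk2, a kinase of SR splicing proteins (chr25:192911-193003), stood at 0.577, 0.429, 0.762 and 0.571 against 0.964, 0.907, 1 and 0.958. In pcgf5b, a Polycomb group RING finger gene, an exon of 51 bases (chr12:16373063-16373113) stood at 0.414, 0.556, 0.447 and 0.593 against 1, 0.838, 0.868 and 1. Coverage was thin for both, with means of 44.6 and 30.6 reads per library. Means were similarly low for the neil1 exon (46.75) and for the exons of myo3a (39.75), slc2a5 (44.9) and tapbp (32.1) that follow.

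Transport, motor and immune genes made up most of the remainder. The exon of 72 bases in myo3a, a class III myosin of sensory cells (chr24:6156050-6156121), was included at 0.392, 0.528, 0.357 and 0.443 in set 1 and at 1, 0.821, 0.915 and 0.803 in set 2. The fructose transporter gene slc2a5 had an exon of 111 bases (chr23:22695746-22695856) at 0.773, 0.25, 0.696 and 0.818 against 1 in each set 2 library. Library 2 of set 1 had 5 reads there, and without it the difference went from -0.366 in the authors' deposited table to -0.238. In tapbp, which encodes the peptide-loading chaperone tapasin, an exon of 249 bases (chr19:7123405-7123653) stood at 0.469, 0.707, 0.622 and 0.576 against 0.867, 1, 0.727 and 1. The tapbp event was not called by the fit of junction reads. The other two of the 12 were an exon of 114 bases in CABZ01013362.1 (-0.289) and one of 147 bases in zgc:174877 (-0.281), as differences in the authors' deposited table. The CABZ01013362.1 exon stood at 0.538, 0.886, 0.905 and 0.516 in set 1 in that event. In its other event, with another neighbouring exon, it stood at 1, 0.774, 0.634 and 1, and the sets overlapped, with a difference of -0.148 in the authors' deposited table that went to -0.0753 without library 3 of set 1. Both events had full inclusion in every set 2 library, but library 4 of set 2 had only 5 reads there, against 177, 160 and 96 in libraries 1 to 3.

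**Figure D4:**
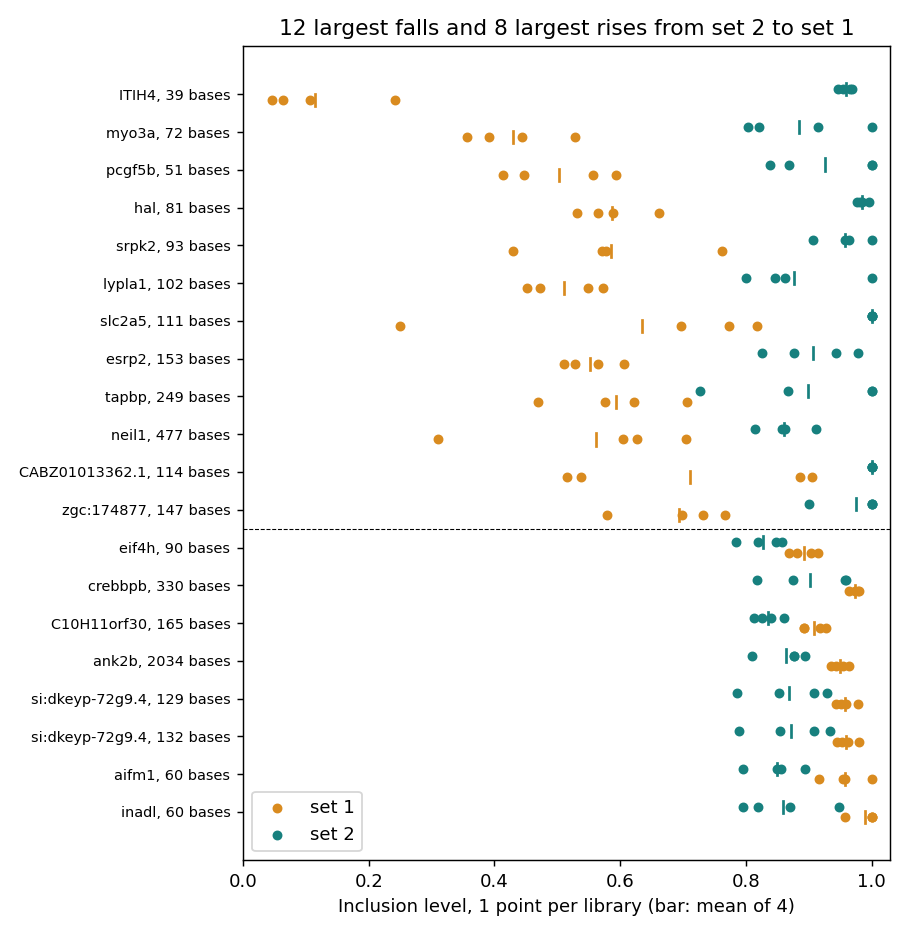
Inclusion level (horizontal axis) in each library of set 1 (orange) and set 2 (teal) for the 12 largest falls (above the dashed line) and 8 largest rises (below it), with bars at the mean of 4 libraries. ITIH4 spans 0.046 to 0.241 in set 1 and 0.947 to 0.969 in set 2, while among the rises the lowest set 2 library stands at 0.784.

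The 8 largest rises were smaller and came from 14 eligible exons. The tight junction scaffold gene inadl had an exon of 60 bases (chr22:16664595-16664654) at 1, 1, 1 and 0.958 in set 1 and 0.82, 0.948, 0.87 and 0.796 in set 2. The difference in the authors' deposited table was 0.131, and the fit of junction reads did not call it. An exon of 60 bases in aifm1, a mitochondrial flavoprotein gene (chr5:22060721-22060780), stood at 0.958, 0.916, 1 and 0.955 against 0.796, 0.894, 0.85 and 0.856. The longest was an exon of 2034 bases, the length of 678 codons, in ank2b, an ankyrin that ties membrane proteins to the spectrin skeleton (chr7:57615980-57618013). It stood at 0.955, 0.936, 0.943 and 0.964 in set 1 and at 0.894, 0.81, 0.877 and 0.876 in set 2.

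Some of the rises are not independent of each other. In si:dkeyp-72g9.4, exons of 132 and 129 bases overlap and both had a difference of 0.089 in the authors' deposited table. In eif4h, a translation initiation factor gene, all 3 member exons passed. Those of 90 and 81 bases overlap and share a skipping junction with the same skipping reads. The exon of 90 bases (chr15:4605387-4605476) stood at 0.904, 0.869, 0.914 and 0.882 against 0.857, 0.819, 0.848 and 0.784. An exon of 330 bases in crebbpb, which encodes an acetyltransferase of the CBP family, stood at 0.973, 0.964, 0.98 and 0.978 against 0.959, 0.875, 0.818 and 0.957. Its difference went from 0.071 in the authors' deposited table to 0.0434 without library 3 of set 2. The exon of 165 bases in C10H11orf30 differed by 0.073 in the authors' deposited table.

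An exon can stand in several events, and its most read event was the one ranked above. The events that follow, of cpo and tnnt3b, were not the most read of their exons and were chosen after their values were seen. The exon of 117 bases in cpo (chr1:4884086-4884202) stood at 0.267, 0.269, 0.504 and 0.545 in set 1 and at 0.992, 0.997, 0.949 and 0.989 in set 2. The sets were far apart, with a difference of -0.585 in the authors' deposited table and a mean of 472 reads per library. In the most read event of the same exon, which pairs it with a nearer downstream exon, inclusion was 1 in each set 1 library and 0.996, 1, 1 and 1 in set 2, so the shift was not seen there. The skipping junction of the shifted event also spans that nearer exon. Its skipping reads therefore do not show a loss of the exon of 117 bases alone, and whether they keep the frame is not known.

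The exon of 168 bases in tnnt3b, a troponin T gene of fast skeletal muscle (chr7:39176936-39177103), was higher in set 1. It stood at 0.963, 0.96, 0.96 and 0.943 against 0.864, 0.893, 0.865 and 0.833, a difference of 0.093 in the authors' deposited table with a mean of 8315 reads per library. The most read event of this exon, with another downstream exon, is no member, because its inclusion was 0.091, 0.105, 0.084 and 0.098 in set 2. It was also higher in set 1, at 0.202, 0.176, 0.18 and 0.165, and in neither event did the sets overlap.

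Further exons with a mean below 0.5 in set 1 were named after their values were seen. An exon of 63 bases in cbln17 stood at 0.383, 0.352, 0.62 and 0.612 against 0.838, 1, 1 and 0.905. Its mean was 28.25 reads per library, and library 3 of set 1 had 3 inclusion reads and 1 skipping read. Overlapping exons of 222 and 219 bases in RAB7B, a small GTPase gene of late endosomes, had full inclusion in set 2. In set 1 the exon of 219 bases stood at 0.217, 1, 0.364 and 0.172, with 6 reads in library 2. The exon of 39 bases in the lipoprotein receptor gene scarb1 stood at 0.071, 0.879, 0.488 and 0.331 against 0.799, 0.815, 0.875 and 0.79. For RAB7B and scarb1 the sets overlapped.

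At the limit of 0.8, the events with at least 100 reads just inside were an exon of 99 bases in ank2b (mean 0.801 in set 2 and 0.828 in set 1) and one of 63 bases in puf60a, a splicing factor gene (0.801 and 0.744). Just outside were an exon of 33 bases in bin1b (0.798 and 0.716) and one of 129 bases in ENSDARG00000054723 (0.799 and 0.794). The most read exons were 2 of the muscle actin gene actc1b and 1 of the myosin light chain gene mylpfa, at an inclusion of 1 in all 8 libraries.

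Beside the 4.71% of all members and 9.01% of all events that passed the authors' FDR, from which nothing is read here, the events are given by list of genes. The lists are not complete: esrp2 and srpk2 are not in the splicing list, pcgf5b not in the chromatin list and inadl not in the junction list. The matrix list lacks epyc and the sarcomere list lacks mybphb, each with an event that passed the authors' FDR as higher in set 1. The NMD list lacks the RNA decay gene xrn1, with an event that passed as lower in set 1. Counts by list therefore describe the listed genes only. Among 66 host genes in the list of splicing regulators, 4 of 110 events were lower in set 1 and 1 higher (4.55% called). The exon of 51 bases in ptbp1b, the polypyrimidine tract binding protein gene (chr11:14264037-14264087), stood at 0.856, 0.861, 0.892 and 0.88 against 0.95, 0.985, 0.913 and 0.94. The exon of 93 bases in rbfox1, which encodes an RNA-binding splicing factor of neurons and muscle (chr3:27913861-27913953), was higher in set 1, at 0.991, 0.993, 0.984 and 0.998 against 0.982, 0.981, 0.977 and 0.974, and was not called by the fit of junction reads. In rbm39a an exon of 66 bases with a mean of 1740 reads differed by -0.019 in the authors' deposited table, and its sets overlapped. Of 15 events in NMD and exon junction genes, none passed the authors' FDR, 1 had an unadjusted p under 0.05 in the authors' deposited table and the fit of junction reads called 0.

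For structural genes, 8 of 156 events in membrane skeleton and junction genes were lower in set 1 and 0 higher (5.13% called), and 8 of 184 in neuronal adhesion, synapse and channel genes were lower and 1 higher (4.89%). In extracellular matrix genes 5 of 182 were lower and 0 higher (2.75%), and in sarcomere genes 1 of 91 was lower and 1, that of tnnt3b, higher (2.20%). At an unadjusted p under 0.05 in the authors' deposited table, 1 event of the membrane skeleton list and 0 of the matrix list were higher, and the fit of junction reads called 0 higher in either. The exon of 36 bases in postnb, a matrix protein gene of the periostin family (chr15:32879097-32879132), was read 2648 times per library on average. It stood at 0.876, 0.834, 0.842 and 0.877 in set 1 and at 0.906, 0.915, 0.919 and 0.932 in set 2. The exon of 42 bases in clasp2, a microtubule-binding protein gene, stood at 0.853, 0.89, 0.877 and 0.927 against 0.946, 0.931, 0.951 and 0.948. In mapta, the tau gene, an exon of 93 bases (chr12:4712736-4712828) differed by -0.06 in the authors' deposited table while its sets overlapped. Another of 93 bases (chr12:4715224-4715316), chosen after its values were seen, stood at 0.87, 0.815, 0.84 and 0.912 against 0.979, 0.981, 0.99 and 0.995, apart in all libraries. In the most read event of that second exon, with another neighbouring exon, the difference was 0.034 in the authors' deposited table and the sets overlapped. The skipping junction of the event that was apart in all libraries also spans the first of these mapta exons.

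For regulatory and housekeeping genes, 4 of 119 events in chromatin regulators were lower in set 1 and 2 higher (5.04% called). In ubiquitin and proteasome genes 4 of 137 were lower and 0 higher (2.92%), and in membrane trafficking genes 4 of 79 were lower and 0 higher (5.06%). At an unadjusted p under 0.05 in the authors' deposited table, 1 event of the ubiquitin list and 0 of the trafficking list were higher, and the fit of junction reads called 0 higher in either. An exon of 51 bases in brd9, a bromodomain gene (chr16:53051570-53051620), stood at 0.93, 0.888, 0.954 and 0.874 against 1, 0.97, 1 and 0.975. In cul5b, a cullin of ubiquitin ligases, an exon of 81 bases had a mean of only 16.6 reads per library, and its sets overlapped. It differed by -0.268 in the authors' deposited table and by -0.14 without library 2 of set 1. Without that library the exon of 87 bases in usp21, a deubiquitinase gene, went from -0.065 in the authors' deposited table to -0.041. The endocytosis gene eps15 had an exon of 63 bases that went from -0.081 in the authors' deposited table to -0.0493 without library 3 of set 1. Of 119 events in ribosome and translation genes, 1 was lower and 3 higher in set 1 (3.36% called). The 3 were those of eif4h, whose exons of 90 and 81 bases overlap and share a skipping junction, so they are not independent. The fit of junction reads called 8 lower and 5 higher in this list. For all 9274 events the median difference was -0.002, and the list medians lay between -0.005 and 0.

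Gene level was not used to choose the exons, apart from the read minimum. Of the 5792 host genes 5787 were tested between genotypes with edgeR's quasi-likelihood test, and 757 were higher in mutants (13.1%) and 321 lower (5.55%) at a Benjamini-Hochberg adjusted p of 0.05. Of all 23680 genes tested, 9.1% were higher and 5.11% lower. Host genes were more highly expressed than all genes, with a median log2 CPM of 4.54 against 3.31, and the part of this in the counts was not tested. Leaving out mutant replicate 1 reduced the host count lower in mutants to 173, and leaving out wild type replicate 1, 3 or 4 gave 204, 184 or 175. Host genes higher in mutants numbered 505 without wild type replicate 3, within 1.5 times of the full count.

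Gene level was then read for the hosts of exons lower in set 1. Of these 353 genes, 49 were higher in mutants (13.9%) and 25 lower (7.08%), and of the 5399 tested host genes without a called exon, 13.1% were higher and 5.43% lower. For frame-breaking exons lower in set 1, 346 of 1334 host genes were higher in mutants (25.9%) and 72 lower (5.4%). Among the 8784 tested hosts of all mostly included frame-breaking exons, 13.5% were higher and 5.49% lower. The differences between these shares were not tested.

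The largest rises among host genes were those of gck, si:dkey-23i12.5, bmb and si:dkey-22h13.5. In si:dkey-23i12.5 the level was 604, 694, 611 and 684 CPM in mutants and 23.7, 28.0, 21.6 and 19.5 in wild types (log2 fold change 4.80, SE 0.14, edgeR adjusted p = 4.51e-07). The gene bmb, known for nuclear fusion in the early zebrafish embryo, stood at 15.1, 15.02, 15.9 and 15.3 CPM against 1.09, 1.44, 0.814 and 1.42 (log2 fold change 3.69, SE 0.18). The glucokinase gene gck stood at 55.5, 3.83, 76.1 and 2.39 CPM against 1.64, 0.711, 0.814 and 0.911 (edgeR adjusted p = 0.0169), and its mutants differed widely among themselves. Its call was lost without wild type replicate 3 or 4.

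The largest falls included those of zgc:112146, tgm2a and uox. The urate oxidase gene uox stood at 15.1, 14.1, 22.0 and 18.9 CPM in mutants and 59.2, 78.5, 59.97 and 60.01 in wild types (log2 fold change -1.88, SE 0.16, edgeR adjusted p = 9.22e-05). The transglutaminase gene tgm2a stood at 8.64, 5.33, 15.5 and 7.07 CPM against 28.8, 43.8, 41.1 and 33.8 (log2 fold change -2.01, SE 0.30). All mutants lay below all wild types for both, and groups did not overlap for 21.2% of all genes.

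Of 56 genes of named exons, 9 rose in mutants, 7 fell and 40 did not pass. Genes of splicing factors were among those that rose. The gene ptbp1b stood at 143 ± 13.3 against 46.1 ± 2.88 CPM (3.10-fold, edgeR adjusted p = 6.16e-06, n = 4), puf60a at 158 ± 6.74 against 72.8 ± 3.47, rbm39a at 333 ± 14.9 against 173 ± 7.30 and esrp2 at 90.5 ± 11.6 against 47.7 ± 4.70. Of the other hosts of large falls, myo3a rose from 11.4 ± 0.475 to 29.7 ± 2.98 CPM, pcgf5b from 3.97 ± 0.526 to 6.65 ± 0.92 and zgc:174877 from 10.99 ± 0.754 to 20.6 ± 1.33. The remaining rises were rps27.2, at 74.6 ± 9.28 against 29.3 ± 6.22 CPM, which may share reads with a close copy, and nbas, at 35.9 ± 3.73 against 22.4 ± 3.33.

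The inhibitor heavy chain genes fell. ITIH4 stood at 202, 173, 130 and 198 CPM in mutants and 244, 322, 294 and 291 in wild types (log2 fold change -0.71, SE 0.15, edgeR adjusted p = 0.0133). The genes itih3b (38.02 ± 4.31 against 70.1 ± 11.5 CPM) and itih3a (18.3 ± 7.62 against 40.1 ± 7.45 CPM) fell too, as did scarb1 (11.6 ± 1.59 against 17.9 ± 2.93 CPM). Of the liver markers, the fatty acid binding protein gene fabp10a had a log2 fold change of -0.79 (edgeR adjusted p = 0.0432) and the transferrin gene tfa one of -0.50 (edgeR adjusted p = 0.0629). Of the other markers, the keratin gene krt5 (-1.07), actc1b (-0.69) and the synaptic gene snap25a (-0.32) also passed as lower. Other markers of the same tissues, krt4 (-0.56), mylpfa (-0.38), ckma (-0.17) and elavl3 (-0.06), did not pass. All measured markers had negative log2 fold changes, and the part of these changes in the falls of the inhibitor genes was not tested. The call of fabp10a was lost without mutant replicate 1, 3 or 4 or wild type replicate 2 or 4 (edgeR adjusted p between 0.0628 and 0.0973), and that of snap25a without mutant replicate 1 or 3 or wild type replicate 3 or 4 (0.0543 to 0.0623). The calls of actc1b (log2 fold change -0.69), RAB7B (-1.48), col15a1b (-0.27) and itih3a (-1.13) were each lost when some single libraries were left out. For itih3a these were mutant replicate 1 and wild type replicates 2, 3 and 4, for actc1b mutant replicate 3, for RAB7B every library except mutant replicates 2 and 3, and for col15a1b every library except mutant replicate 2.

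**Figure D5:**
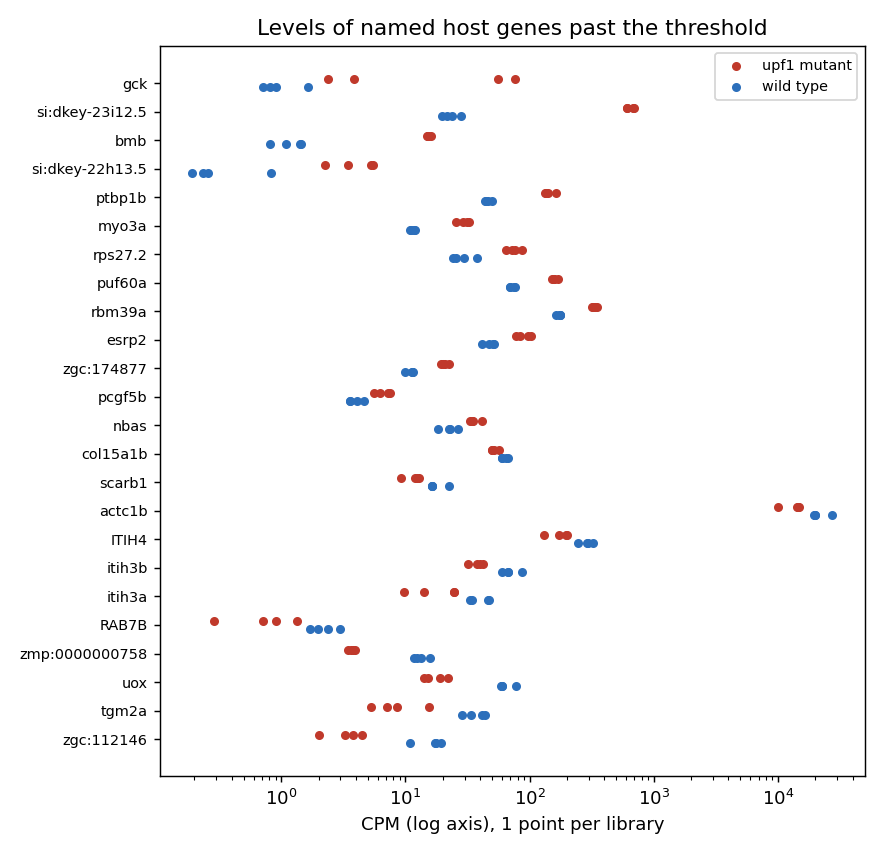
Gene level in CPM on a log axis for each library of the upf1 mutants (red) and wild types (blue), for the named host genes past the adjusted p of 0.05. In gck the mutants run from 2.39 to 76.1 CPM, while in ptbp1b, esrp2 and myo3a each group is tight and the groups are apart.

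Host genes of large falls in inclusion that did not pass at gene level included hal (38.4 ± 9.18 against 55.5 ± 10.04 CPM, edgeR adjusted p = 0.0909), srpk2 (93.0 ± 10.1 against 88.6 ± 7.82), lypla1 (4.202 ± 0.827 against 4.09 ± 0.70), slc2a5 (3.57 ± 1.11 against 3.81 ± 1.30), neil1 (7.47 ± 0.545 against 6.31 ± 0.461) and tapbp (2.52 ± 1.02 against 1.57 ± 0.289). In CABZ01013362.1 the wild types ran from 3.43 to 34.9 CPM. None of the host genes of the 8 largest rises passed either, and crebbpb came nearest (126 ± 5.08 against 150 ± 10.9 CPM, edgeR adjusted p = 0.055). It passed with DESeq2's size factors and its Wald test (log2 fold change -0.27 in each), with the newer quasi-likelihood method (-0.26) and without wild type replicate 2 (-0.29). The hal gene passed with the DESeq2 Wald test (-0.54) and without mutant replicate 4 (-0.68). The genes cpo (46.01 ± 9.87 against 65.3 ± 13.8 CPM, edgeR adjusted p = 0.0965) and tnnt3b (2456 ± 310.3 against 3328 ± 433.8 CPM, edgeR adjusted p = 0.0548) did not pass by edgeR and did with the DESeq2 Wald test.

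Of all host genes tested, 13.1% were higher in mutants and 5.55% lower, and of all genes tested 9.1% and 5.11%. By list, 34 of 66 host genes among splicing regulators rose in mutants and 0 fell by edgeR. An unadjusted p under 0.05 was reached by 2 that were lower, and 0 were lower by DESeq2. Their median log2 fold change was 0.36, against 0.01 over all host genes. Of 10 host genes in the NMD and exon junction list 5 rose and 0 fell by edgeR, against 1 lower before adjustment and 0 by DESeq2. In the ubiquitin and proteasome list 19 of 87 rose and 1 fell. Ribosome and translation genes went the other way, with 23 of 78 lower and 9 higher, and in the sarcomere list 10 of 49 were lower and 3 higher. These lists were drawn up with earlier results of these libraries known, so their direction is not independent evidence.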

How the data were processed

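PolyA RNA of whole larvae was sequenced from stranded libraries, per the labels' protocols. The authors deposited a table of raw gene counts and a table of skipped-exon events in the columns that rMATS writes, on GRCz10 per the submitters' processing notes. The notes name featureCounts, STAR 2.5.2b and TopHat2 2.0.13 among the tools, without roles. The sources used here give neither the rMATS settings nor the strand setting of the counting, and reads of overlapping or antisense genes may therefore be mixed. The splicing table holds, per the file headers, p-values and FDR, the inclusion level difference (a score from -1 to 1), and junction reads and inclusion levels of 4 libraries per set.

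Counts were fitted with edgeR 4.0.16 in R 4.3.3 (TMM, filterByExpr with a minimum count of 10 and a minimum total of 15, quasi-likelihood test with default settings). CPM uses the same scaling. Junction reads were fitted with the same tool in a quasi-Poisson form (library, form, and form by set). A first version with estimated dispersions did not finish and gave no result. On simulated counts over 23680 genes for the genotype comparison, recovery was 19.4% for 1.5-fold changes, 62.7% for 2-fold and 95.5% for 4-fold ones, with 5 false calls. Simulated junction reads of 4000 events for set 1 against set 2 gave 33% recovery at inclusion 0.9 against 0.95 and 100% at 0.8 against 0.95, with 12 false calls. Only better covered events were simulated, and unchanged ones stood at 0.95. Recovery and false calls for events with few reads or nearer full inclusion were therefore not tested.

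Named exons, one event per exon (the most read), are the 12 largest falls and 8 largest rises with separate sets, an FDR of 0.05 and 30 reads, up to 3 per gene list by FDR, the 3 most read and 2 on each side of the limit. Gene level covers their genes and the 4 largest rises and falls among host genes. Exons named otherwise are said to be. The members and the 10 lists were chosen with earlier results of these data known. Alternatives were DESeq2 1.42.0, its size factors, no filter, a replicate block, left-out libraries and other limits. Of 8 combinations of edgeR settings compared after the data were seen, the default was kept as planned, and robust estimation and the newer quasi-likelihood method are reported as added alternatives. Python 3.11.15 with pandas 2.3.3 handled the tables.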

Additional observations from a re-analysis of the deposited data

Results flagged for a closer look

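In 32 of 284 groups of 4 libraries, 1 library stood apart from the other 3. Inclusion cannot exceed 1, so a library just below 3 at full inclusion is flagged however small the gap. Many of the groups were also named for their values, so no chance rate is set beside these numbers. In inclusion level there were 15 such groups of 152. The lowest library of set 2 stood apart in itih3b (exon of 54 bases, 0.994), itih3a (exon of 33 bases, 0.975), both cpo events (0.949 and 0.996), zgc:174877 (0.9), usp21 (0.988), eps15 (0.965) and the exon of 45 bases of si:ch211-266g18.10 (0.991). The lowest library of set 1 stood apart in inadl (0.958), tnnt3b (0.943), eps15 (0.815), acin1a (0.984) and the exon of 42 bases of si:ch211-266g18.10 (0.636). The highest library of set 1 stood apart in itih3b (exon of 63 bases, 1) and in the exon of 99 bases of ank2b (0.891).

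In gene level there were 17 such groups of 132. Wild type replicate 2 was the lowest in zgc:174877 (9.87 CPM), si:ch211-266g18.10 (66.1 CPM), rbm39a (162 CPM) and neb (989.6 CPM), and the highest in uox (78.5 CPM), ap3s2 (28.6 CPM), tnnt3b (3971 CPM), actc1b (27530 CPM) and mylpfa (9638 CPM). Mutant replicate 2 was the lowest in actc1b (10022 CPM), mylpfa (5685 CPM) and myom3 (25.2 CPM). The highest wild type was replicate 1 in si:dkey-22h13.5 (0.82 CPM), replicate 3 in scarb1 (22.3 CPM), and replicate 4 in myom3 (53.2 CPM) and acin1a (229.6 CPM). Mutant replicate 3 was the highest in mybpc1 (104 CPM).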

How the results depend on the processing

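At an adjusted p of 0.01, 990 genes were higher and 313 lower in mutants, and 368 and 86 of the host genes. With the replicate block the numbers were 1307, 612, 475 and 154. Same-numbered libraries did not deviate together (correlations 0.0228, 0.0345, -0.067 and -0.051), so the replicate number gives no pairing. The DESeq2 Wald test called 2105 genes lower, 569 of them host genes. With each library left out in turn, 1419 to 2255 genes were higher and 671 to 1266 lower, and 505 to 779 and 173 to 357 of the host genes. Robust estimation (2159 higher, 1223 lower) and the newer quasi-likelihood method (2200, 1275), both chosen after seeing the data, stayed within 1.5 times of 2156 and 1211.

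Of the member events, 161 were lower and 7 higher in set 1 with a difference of at least 0.1. The number higher was 27 at an FDR of 0.01, 68 chosen by set 1, 20 at an inclusion of 0.9 and 24 by the fit of junction reads. That fit gave 169 to 202 lower and 13 to 20 higher with a library left out. Leaving out the genes with 10 or more member exons, a choice made after seeing the data, gave 384 and 40.

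Log2 fold changes near 0 of genes that did not pass changed sign when a library was left out. They ran from -0.44 to 0.21 in CABZ01013362.1 (0.22 with the replicate block), -0.0909 to 0.125 in lypla1, -0.267 to 0.0733 in slc2a5, -0.246 to 0.0308 in limch1a, -0.048 to 0.00176 in clasp2, -0.267 to 0.0398 in ank2b, -0.219 to 0.201 in si:ch211-266g18.10, -0.0602 to 0.168 in ehbp1l1b, -0.077 to 0.0331 in ap3s2, -0.171 to 0.0346 in upf3a and -0.0483 to 0.111 in bin1b. With the block the calls of gck (3.94), itih3a (-1.21), RAB7B (-1.59), col15a1b (-0.27) and actc1b (-0.69) were lost, and that of actc1b also with the newer quasi-likelihood method. The DESeq2 Wald test called hal (-0.54), crebbpb (-0.27), cul5b (0.36), neb (-0.65), mylpfa (-0.39), tnnt3b (-0.45) and cpo (-0.52), which edgeR did not, and without mutant replicate 2 myom3 passed (0.42). The numbers of junction reads limit single exons, since several differences rest on fewer than 10 reads in a library.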
